A study of Mus musculus with 32 samples.

Results

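Monocytes of the graft were compared with their progeny in the ileum 4 days after transfer. The comparison was set by the sample labels, which give 3 libraries of sorted monocytes and 4 libraries of ileal macrophages of day 4, so that 7 of the 32 libraries of the series were chosen and none was chosen by its values. Graft cells were Ly6C+ monocytes of Cx3cr1 GFP/+ donors, sorted as CD11b+ CD115+ cells with no toxin treatment. Their labels give blood as the organ, whereas the methods of the study describe bone marrow (BM). Recipients were BM chimeras, in which WT mice carried BM of the CD11c-DTR strain (57Lan), in which the Itgax (CD11c) promoter drives a fusion of the diphtheria toxin receptor and GFP. All recipients were given diphtheria toxin before and after the transfer, which depletes CD11c+ cells of any kind, dendritic cells included, and no recipient was left without toxin. All mice were on the C57BL/6J background, and ages are not given in the labels. Progeny were sorted from collagenase digests of ileum, by the methods of the study on the donor markers, which are the donor form of CD45 and GFP. The study describes these cells as CD11b+ CD64+ Ly6C-. It gives a gate on MHCII+ cells for resident macrophages, and does not state whether MHCII was part of the gate for progeny. The labels do not say whether a library is of 1 mouse or of a pool. The p-values measure a spread between libraries that was estimated over all 25 libraries of the fit, colon and later days included.

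Of the ileal libraries, 2 are dated 26 October (replicates 2 and 3, the October pair) and 2 are dated 23 November (replicates 1 and 4, the November pair). Graft libraries are dated 19 November, 31 December and 22 October (replicates 1, 2 and 3), so the October pair belongs with graft replicate 3 and the November pair with graft replicate 1. Date and pair cannot be told apart from any other difference between these 2 experiments. The pairs are reported together and apart, because they differed in how near they lay to colon and to ileum of later days.

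Classical monocytes are released from the BM, circulate briefly and enter tissues. In the gut wall they pass through a series of states in which the surface protein Ly6C is lost and MHC class II is gained, and they become macrophages of the lamina propria, which lies under the epithelium. Such macrophages take up dying cells and bacteria, present antigen and secrete the complement protein C1q. The ileal epithelium next to them absorbs lipids and bile acids and holds Paneth cells, which release defensins, whereas the colonic epithelium takes up water and ions and is rich in goblet cells.

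The upstream sequences of 4 genes are shown to give their place in the genome. Ly6c2 encodes the Ly6C protein of classical monocytes, C1qa a chain of C1q, Reg3b a bactericidal lectin of the gut epithelium, and Krt8 a keratin of epithelial cells. Each line gives the 250 bases before the start of the gene in the count table (mm9), 5′ to 3′ on the strand of the gene, which is chr15:74942380-74942629 (minus), chr4:136454760-136455009 (minus), chr6:78320629-78320878 (plus) and chr15:101834774-101835023 (minus), in that order. No exon of the gencode vM1 annotation lies in these windows, and the nearest start in that annotation is 265 bases from the one used here for Ly6c2, 41 for C1qa and the same for Reg3b and Krt8. Capitals mark 3 short motifs searched on both strands, which are GGAAGT (a core of ETS factors, the family of PU.1), CAAAGT (a core of HNF4 sites) and TTTATG (a core of CDX factors).
Ly6c2: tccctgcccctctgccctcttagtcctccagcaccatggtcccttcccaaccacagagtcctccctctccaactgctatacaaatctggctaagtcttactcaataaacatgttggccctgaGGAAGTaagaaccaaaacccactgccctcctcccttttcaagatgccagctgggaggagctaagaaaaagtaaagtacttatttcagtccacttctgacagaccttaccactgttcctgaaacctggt
C1qa: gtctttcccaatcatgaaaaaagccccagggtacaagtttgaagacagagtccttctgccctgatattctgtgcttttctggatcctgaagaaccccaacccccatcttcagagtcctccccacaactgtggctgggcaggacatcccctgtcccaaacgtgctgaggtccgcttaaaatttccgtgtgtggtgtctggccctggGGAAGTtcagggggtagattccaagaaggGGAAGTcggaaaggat
Reg3b: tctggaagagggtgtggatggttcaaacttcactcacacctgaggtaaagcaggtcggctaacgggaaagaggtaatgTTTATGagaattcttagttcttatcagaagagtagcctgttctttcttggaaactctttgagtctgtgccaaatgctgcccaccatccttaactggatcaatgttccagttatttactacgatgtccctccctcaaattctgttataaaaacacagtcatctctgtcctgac
Krt8: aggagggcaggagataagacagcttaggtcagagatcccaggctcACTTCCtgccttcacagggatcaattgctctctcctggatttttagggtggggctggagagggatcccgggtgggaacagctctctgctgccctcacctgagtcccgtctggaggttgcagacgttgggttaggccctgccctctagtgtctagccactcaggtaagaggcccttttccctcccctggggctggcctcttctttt
GGAAGT was found once in the Ly6c2 window, 2 times in that of C1qa and 1 time in that of Krt8, where it is read on the other strand. Reg3b had TTTATG once and neither of the other motifs. Of all 24343 genes with a window, 20.3% held GGAAGT, 11.8% CAAAGT and 9.77% TTTATG. Among genes tested the shares were 23.9%, 10.3% and 6.34%, and GGAAGT stood before 27.3% of the 2431 genes lower in the ileum and 18.8% of the 4287 genes higher there. CAAAGT stood before 9.38% of the lower and 11.9% of the higher genes, and TTTATG before 5.27% and 7.44%. A match of letters is a description and not a binding site.

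Gene counts are given as normalized reads, which are reads per 10000000 mapped reads of the library. Reads on genes numbered 2447862 to 3639328 in the graft and 591817 to 2770458 in ileum day 4, and 68.7% to 70.5% of mapped reads fell on genes in the graft against 47.1% to 59.1% in ileum day 4. A count of 3 reads, taken as the floor, equals 5.81 to 8.42 normalized reads in the graft and 6.40 to 27.6 in ileum day 4, with the highest floor in October replicate 3. Intervals and floors cover counting error only. No 2 libraries of a group agreed within sampling noise, and chi-square per degree of freedom was 8.58 within the November pair, 17.1 within the October pair and 23.8 to 57.4 across the pairs.

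Of 11842 genes tested, 6718 (56.7%) passed an adjusted p under 0.05 between graft and ileum day 4, with 4287 (36.2%) higher and 2431 (20.5%) lower in the ileum. Adjusted p-values are those of edgeR's quasi-likelihood test with Benjamini-Hochberg adjustment over all genes tested, and a gene is said to rise, fall or be called only when it passed. At least 2-fold changes were called for 3810 higher and 1682 lower genes. The median log2 fold change of all genes tested was 0.23 with TMM scaling and -0.20 when libraries were scaled by their mapped totals, under which 3447 genes were higher and 3814 lower. Because of this shift, small changes in either direction depend on the scaling. Against the same 3 graft libraries, 6299 genes (53.2%) were called for the October pair and 5662 (47.8%) for the November pair. In both, 3074 genes were higher and 1481 lower, whereas 23 genes were called in opposite directions.

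Genes of classical monocytes fell. Of 19 genes on this list, 14 fell and 1 rose, where 20.5% and 36.2% of all genes did, and their median log2 fold change was -4.84. Ly6c2 had 26717, 20738 and 23435 normalized reads in the graft, 55.5 and 0 in the October pair and 1364 and 378 in the November pair. All 4 ileal libraries lay far under the graft, and the October pair lay under the November pair. The log2 fold change was -5.25 ± 0.86 (SE, adjusted p 1.79e-05), and October was lower than November by a log2 difference of -4.51 (adjusted p 0.00102). Ly6c1 is a near copy of Ly6c2, and reads could be split between them. It fell with -1.79 ± 0.67 (adjusted p 0.0256), a call that was lost when any of graft replicates 1 and 3 or ileum replicates 2 and 3 was left out, for November alone and in a fit of the 7 libraries alone (adjusted p 0.000405 to 0.223 over 18 alternatives).

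Other members of this list that fell include Chil3, Hp, F13a1, Fn1, S100a4 and Ccr2. Chil3, a chitinase-like protein, had 9777, 9905 and 7696 normalized reads in the graft, 4.27 and 0 in October and 42.9 and 71.3 in November. Hp (haptoglobin, which binds free haemoglobin) had 11719 to 14474 in the graft and 0 to 71.3 in the ileum, with a log2 fold change of -8.47 ± 0.91 (adjusted p 4.86e-08). In both genes every ileal library lay far under the graft. F13a1, the A chain of coagulation factor XIII, went from 8011 to 13958 normalized reads in the graft to 46.2 to 136 in the ileum, and Fn1 (fibronectin) from 18904 to 29048 to 82.9 to 535. S100a4, a calcium-binding protein, had 30573 to 37193 in the graft, 134 and 92.2 in October and 152 and 949 in November. None of these 5 genes differed between the pairs by the test. Of 10 tested chemokine and homing receptors, 4 fell and 2 rose, where 20.5% and 36.2% of all genes did, with a median of 0.18. Ccr2, the receptor for CCL2, changed by -3.90 ± 0.67 on the log2 scale (adjusted p 3.30e-05). Itgb7, a chain of the gut-homing integrin, had 4138, 4702 and 5219 normalized reads in the graft, 6.40 and 9.22 in October and 271 and 221 in November, and the pairs differed (adjusted p 0.00117).

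Not every gene of the list fell. Plac8 had 5377 to 6046 normalized reads in the graft and 2938 to 8055 in the ileum (log2 fold change 0.16 ± 0.39, adjusted p 0.755). Mgst1, Prr13 and Cxcr4 were also not called, with log2 fold changes of -0.21, 0.09 and -0.06. Cxcr4, a chemokine receptor, turned on October replicate 3, with 96.1 and 1511 normalized reads in October, 168 and 136 in November and 599 to 842 in the graft, and it was called lower without that library and for November alone (adjusted p 0.000464 and 0.0498). Thbs1 (thrombospondin 1, a matrix protein) rose by 1.85 ± 0.48 on the log2 scale (adjusted p 0.00209).

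Granule genes of BM myeloid precursors fell. All 14 tested genes of this list fell, where 20.5% of all genes did. Their median log2 fold change was -8.09, or -4.94 when genes without a read in the ileum were set to their bound. Of the 15 genes on the list 5 had no ileal read. Such genes could pass the filter on low values only through other libraries, the graft among them, and so could not be higher in the ileum. Mpo (myeloperoxidase) had 702, 188 and 615 normalized reads in the graft and no read in any ileal library, which is at least 30.7-fold lower with the floor of 3 reads per library in place of 0. By the same bound the serine proteases Ctsg and Elane were at least 43.7-fold and 28.6-fold lower, the antimicrobial peptide Camp 30.9-fold and the ficolin Fcnb 14.9-fold. DESeq2 did not call Mpo, Elane and Kcnk12 (adjusted p 0.170, 0.175 and 0.110), of which Kcnk12 encodes a potassium channel. Lyz2, the lysozyme of myeloid cells, was at 64735, 73996 and 52893 normalized reads in the graft, 1509 and 4359 in October and 3038 and 6740.0 in November. The ileal libraries stayed far under the graft. Lyz2 has a near copy in Lyz1, a Paneth cell gene, so reads could be split between them. The 12 largest falls also held 4 genes outside the lists named so far, Galnt9, Nfe2, Kcnk12 and Serpinb10. Nfe2, a transcription factor of blood precursors, had 2181 to 2377 normalized reads in the graft and 0 to 2.13 in the ileum.

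Genes that white blood cells share fell too. Of 15 pan-leukocyte genes, 14 fell, where 20.5% of all genes did, and Cd53 was not called. The list median was -2.21. Coro1a (coronin 1A, an actin regulator) had 18624, 19610.2 and 26097 normalized reads in the graft, 651 and 1889 in October and 2044 and 3923 in November. Ptprc, which encodes the sorting marker CD45, had 5204, 6089.8 and 3826 in the graft, 529 and 627 in October and 1324 and 1683 in November. No ileal library overlapped the graft in either gene. The log2 fold change of Ptprc was -1.86 ± 0.56 (adjusted p 0.00707, or 0.0906 for November alone), and that of Lsp1, an actin-binding protein, was -5.25 ± 0.45 (adjusted p 1.60e-09). Summed over the list, reads made up 1.65% to 1.81% of reads on genes in the graft, 0.104% and 0.234% in October and 0.380% and 0.430% in November. In bulk libraries, fewer cells of a type and less RNA per cell cannot be told apart. Other surface markers of the graft or the progeny moved unevenly. Itgam (CD11b) changed by -2.53 ± 0.59 (adjusted p 0.000883), Csf1r (CD115) and Fcgr1 (CD64) were not called, at -0.43 ± 0.59 and -0.54 ± 0.57, and Itgax (CD11c), the promoter of which drives the toxin receptor of recipients, rose by 5.76 ± 1.06 (adjusted p 7.25e-05).

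Replication and mitosis genes fell, with 22 of 24 lower, where 20.5% of all genes were, and a median of -1.88. Mki67, a marker of cycling cells, had 2244 to 3083 normalized reads in the graft and 373 to 763 in the ileum, and Top2a (topoisomerase II) 3319 to 4846 and 424 to 1348. The 2 members that rose were the D cyclins Ccnd1 and Ccnd2, by 5.88 ± 0.40 and 7.61 ± 0.51 on the log2 scale, whereas Ccnd3 changed by -3.38 ± 0.26. No gene of this list differed between the pairs by the test.

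**Figure D1:**
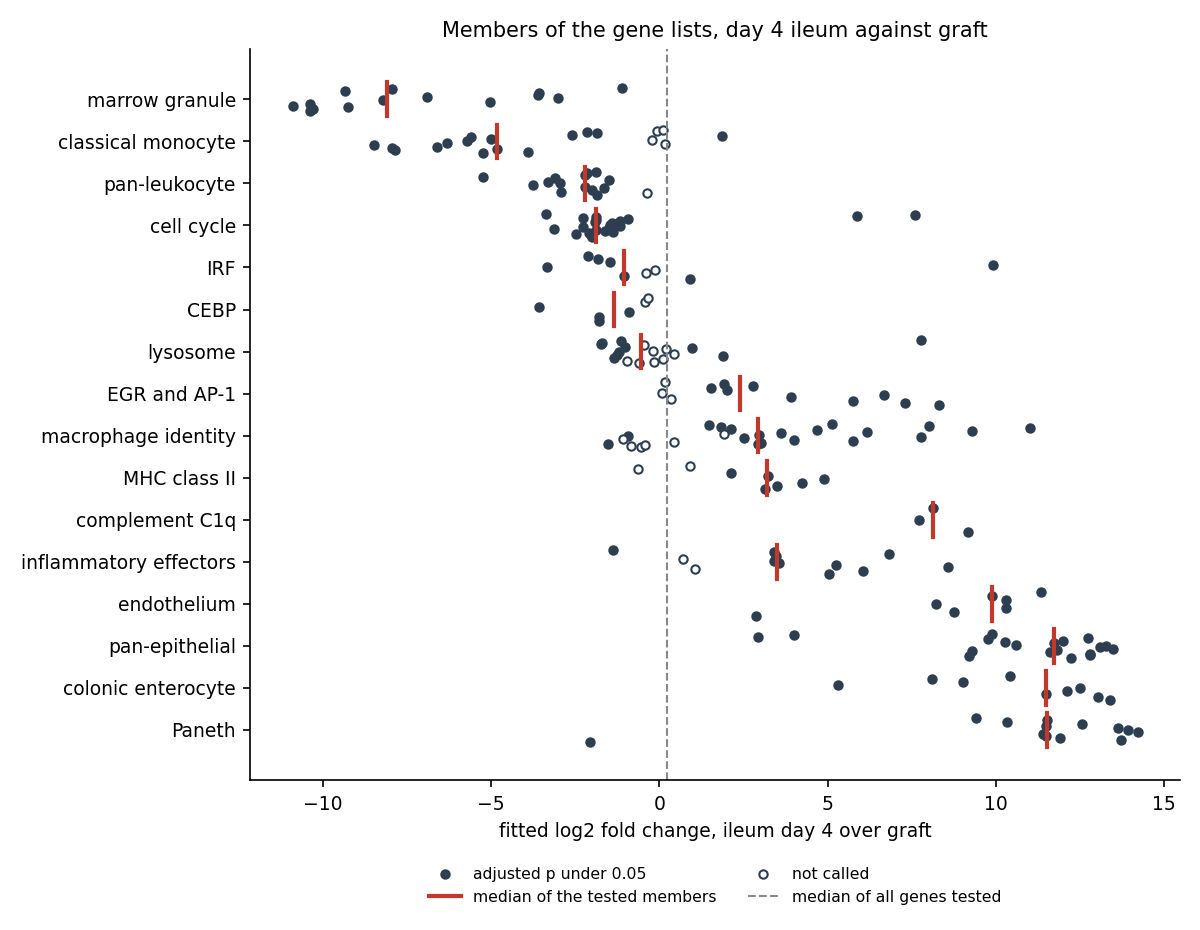
Fitted log2 fold change of tested members of gene lists, ileum day 4 over graft, 1 point per gene, filled where the adjusted p was under 0.05. Red bars are list medians and the dashed line is the median of all genes tested (0.23). Fitted values of genes at 0 in a whole group depend on the prior count and are not bounds. Marrow granule (-8.09), classical monocyte (-4.84) and pan-leukocyte (-2.21) medians lie on the left, and C1q (8.13) and epithelial medians on the right.

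Macrophage genes rose. Of 25 tested macrophage identity genes, 17 rose and 2 fell, where 36.2% and 20.5% of all genes did, with a median of 2.92. C1qa had 39.3, 36.8 and 14.5 normalized reads in the graft, 3262 and 19437 in October and 12160 and 16069 in November. All 4 ileal libraries lay over the graft, and October replicate 2 was the lowest of them. The log2 fold change was 9.17 ± 0.95 (adjusted p 2.74e-08), and no difference was called between the pairs (adjusted p 0.953). C1qb and C1qc, which encode the other chains of C1q, rose by 7.71 ± 0.90 and 8.13 ± 0.87. The 3 genes together took 0.000704% to 0.00176% of reads on genes in the graft, 0.131% and 0.554% in October and 0.468% and 0.566% in November.

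Other products of tissue macrophages followed. Acp5, an acid phosphatase, had 64.6 to 171 normalized reads in the graft and 2728 to 3566 in the ileum. Pf4, a chemokine, went from 0 to 8.42 to 905 to 2018, and Mrc1, the mannose receptor CD206, rose by 3.99 ± 0.60 on the log2 scale (adjusted p 5.77e-06). Gas6, a ligand of the receptors Axl and Mertk for dying cells, had 1 read in the graft, 2135 and 3281 normalized reads in October and 700.0 and 756 in November. All 4 ileal libraries lay far over the graft, with a ratio over pooled reads of 2109 (exact interval 378 to 83366), and October was higher than November (adjusted p 0.00227). Axl rose by 1.83 ± 0.40 (adjusted p 0.000408), while Mertk had no read in the graft and 12.8 to 39.6 normalized reads in the ileum, under the level tested. Apoe, a lipid carrier, was high in the graft already, at 5572, 11344 and 4836, and was 10427 and 34689 in October and 44982 and 29121 in November, so that October replicate 2 overlapped the graft. Its log2 fold change was 2.51 ± 0.64 (adjusted p 0.00197). Maf, a transcription factor of macrophage maturation, rose by 3.03 ± 0.51. Adgre1 (F4/80), Cx3cr1 and Trem2, a lipid receptor, were not called, at -0.85 ± 0.50, 0.42 ± 0.53 and -1.10 ± 0.73, but Adgre1 was called lower in a fit of the 7 libraries alone and with mapped totals (lowest adjusted p 0.0320), and Trem2 without October replicate 3 (adjusted p 0.00970). Cd68, a lysosomal membrane protein, fell, with a log2 fold change of -1.54 ± 0.50, a call that was lost for November alone and when colon day 8 replicate 1 was added to the fit (0.00193 to 0.0652 over 18 alternatives).

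MHC class II genes present antigen to T cells, and 6 of 8 tested rose, where 36.2% of all genes did. For October alone 4 rose and 1 fell, where 33.2% and 19.9% of all genes did, and for November alone 6 rose and none fell, where 31.7% and 16.1% of all genes did. H2-Aa had 1403, 3829 and 859.7 normalized reads in the graft, 5581 and 12442 in October and 18308 and 16468 in November. The ileal libraries lay over the graft, and November held the higher pair of values. H2-Ab1 and H2-Eb1 rose by 3.50 ± 0.75 and 4.25 ± 0.74, and their regulator Ciita by 2.12 ± 0.71 (adjusted p 0.0138). The call of Ciita was lost without November replicate 1 or graft replicate 1 and for October alone (0.00197 to 0.428 over 18 alternatives). No gene of the list passed the test between the pairs. H2-DMa, a loading factor, was not called (-0.64 ± 0.54), but was called lower for October alone (adjusted p 0.0425).

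Lysosomal genes had no common direction. Of 18, 3 rose (Ctsl, Gaa and Cd63) and 7 fell, where 36.2% and 20.5% of all genes did, with a median of -0.54. Psap (saposins), Npc2, a cholesterol carrier, and Lamp1 changed by -1.70 ± 0.46, -1.74 ± 0.29 and -1.20 ± 0.38 on the log2 scale, and the call of Lamp1 was lost for October alone (adjusted p 0.0859). That of Gaa was lost with scaling by mapped totals (adjusted p 0.113). The number that fell was 4 for November alone, where 16.1% of all genes fell. It was 11 with scaling by mapped totals, under which 3814 of 11842 genes fell. The cathepsins Ctsb and Ctsd were not called (-0.15 and 0.11).

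**Figure D2:**
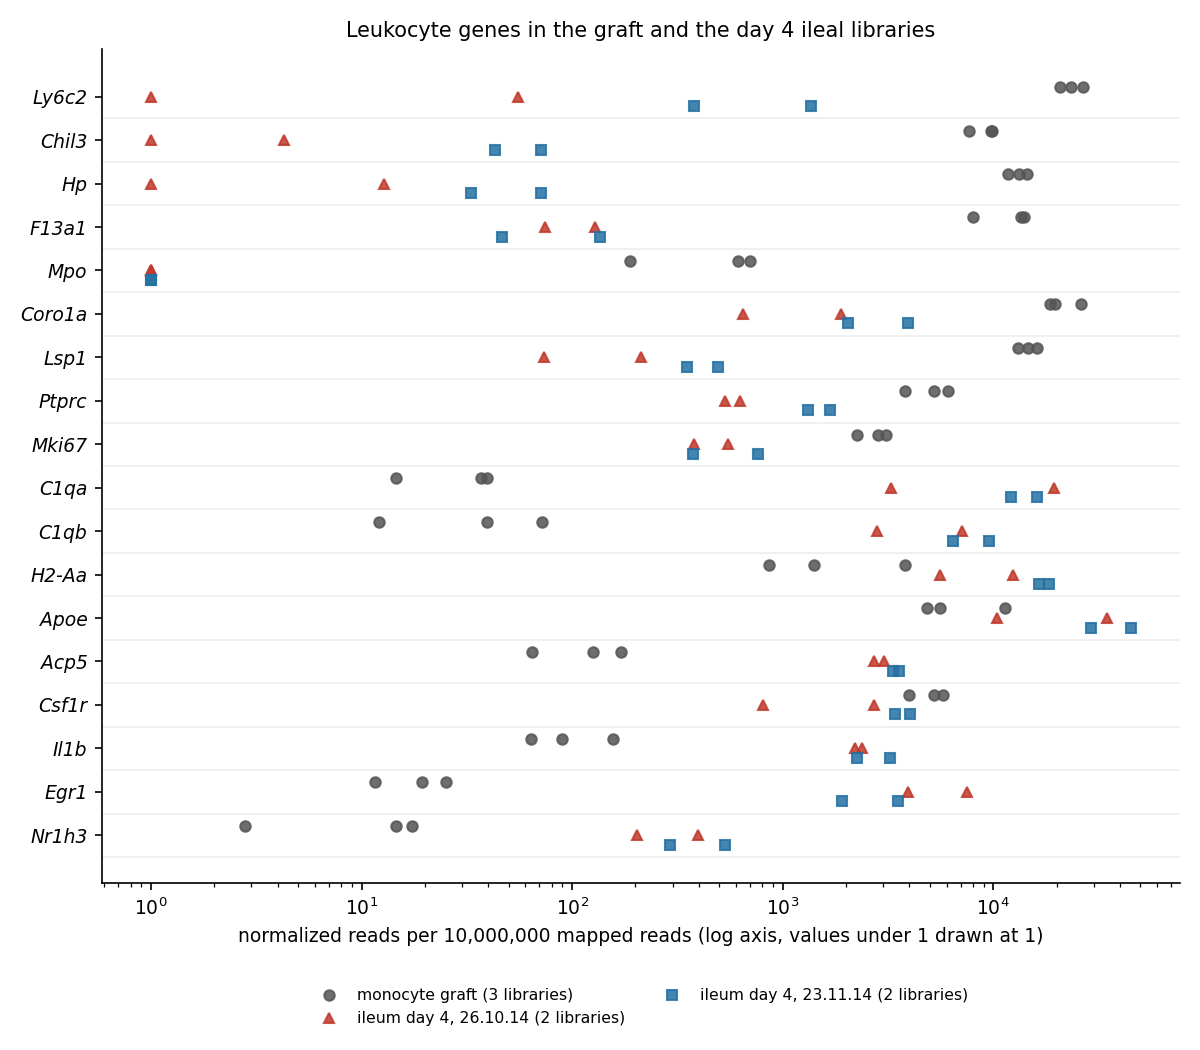
Normalized reads of leukocyte genes on a log axis, 1 point per library, for 3 graft libraries (circles), 2 October (triangles) and 2 November (squares) ileal libraries. For Ly6c2 and Coro1a the graft lies to the right of all ileal libraries, and for C1qa and Acp5 to the left.

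Most regulators of the myeloid lineage that changed fell. Of 6 genes with a Cebp symbol, some of which drive granulocyte and monocyte development, 4 fell and none rose, where 20.5% and 36.2% of all genes did. Cebpg and Cebpz were not called. Of 9 Irf genes 5 fell and 2 rose, and of 16 tested genes on a list of myeloid regulators 7 fell and 4 rose. Cebpe went from 180.2 to 230.2 normalized reads in the graft to 0 to 28.5 in the ileum, and Cebpa changed by -1.81 ± 0.42 on the log2 scale. Spi1, which encodes PU.1, had 2700.3, 2699 and 3332 in the graft, 216 and 387 in October and 499 and 1127 in November. The ileal values did not reach the graft, and the log2 fold change was -2.0 ± 0.58 (adjusted p 0.00485, or 0.0691 for November alone). Irf8 and Irf5, regulators of monocyte development and inflammation, changed by -1.82 ± 0.38 and -3.35 ± 0.64, and Nfkb1, a subunit of NF-kB, by -2.29 ± 0.26. Nr1h3, the sterol sensor LXR alpha, rose, with 2.81 to 17.4 normalized reads in the graft and 203 to 535 in the ileum (5.22 ± 0.63, adjusted p 2.75e-07). Pparg, a lipid sensor that gut epithelium expresses too, had 25.3, 44.6 and 19.4 in the graft, 602 and 544 in October and 99.1 and 178 in November.

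Immediate early genes are switched on within minutes of a stimulus. Of 12 tested, 9 rose and none fell, where 36.2% and 20.5% of all genes did, with a median of 2.40. For October alone 9 rose and none fell (median 3.04), where 33.2% and 19.9% of all genes did. For November alone 5 rose and 1 fell (median 1.27), where 31.7% and 16.1% of all genes did. Egr1 had 25.3, 11.6 and 19.4 normalized reads in the graft, 3924 and 7493 in October and 3543 and 1919 in November. No ileal value came near the graft. Fosb and Jun rose by 3.90 ± 0.84 and 2.01 ± 0.48 (Jun for November alone, adjusted p 0.0673), whereas Fos was high on both sides and not called (0.35 ± 0.33).

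Inflammatory genes mostly rose, with 9 of 12 tested higher and 1 lower, where 36.2% and 20.5% of all genes were. Their median was 3.50. Il1b had 157, 63.9 and 89.6 normalized reads in the graft, 2209.7 and 2378 in October and 2248 and 3245 in November. The 4 ileal values were close to each other and all over the graft (5.04 ± 0.74, adjusted p 4.27e-06). Ptgs2, which makes prostaglandins, and Cxcl2, a neutrophil chemokine, rose by 5.24 ± 1.06 and 3.41 ± 0.83. Nos2 (inducible nitric oxide synthase) and Il10, an anti-inflammatory cytokine, had no read in the graft and were at least 15.4-fold and 4.23-fold higher in the ileum. Tnf (1.07 ± 0.61) and Ccl3 (0.72 ± 0.63) were not called, although Tnf was called higher for October alone (adjusted p 0.0376). Tgfb1 fell, with a log2 fold change of -1.38 ± 0.57 and an adjusted p of 0.0426, or 0.00939 to 0.158 over 18 alternatives. Of 18 interferon-stimulated genes, 6 fell and 3 rose, where 20.5% and 36.2% of all genes did, and the median was -0.64. For October alone 9 fell and 1 rose (median -1.61), where 19.9% and 33.2% of all genes did. For November alone 3 fell and 4 rose (median -0.19), where 16.1% and 31.7% of all genes did. Called lower in October than in November were 3, where 5.81% of all genes were. Mx1, an antiviral GTPase, fell, at -3.65 ± 0.64, and the chemokine Cxcl10 rose, at 2.45 ± 0.86, a call that was lost without graft replicate 2 or 3 (adjusted p 0.0186, 0.000335 to 0.0617 over 18 alternatives).

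Genes of intestinal epithelium were close to absent in the graft and high in every ileal library, although cells were sorted as CD45+. All 19 pan-epithelial genes rose, where 36.2% of all genes did. Their median was 11.72, or 9.19 with genes at 0 in the graft set to their bound. A gene without a read in the graft passed the filter on low values only through libraries of progeny, so that such genes, 7 of these 19, had to be higher in progeny, and the same holds for the other lists of gut cells. Krt8 had 5.61, 7.75 and 4.84 normalized reads in the graft, 23856 and 23989.5 in October and 4464 and 6654 in November. Epcam, an adhesion molecule of epithelial cells, had 1 read in the graft, 6006 and 6249 normalized reads in October and 1872 and 2061 in November. October was higher than November for both (adjusted p 0.000330 and 0.00260). Over 92 genes of the 7 epithelial lists, without Lyz1, summed reads were 0.00687% to 0.00739% of reads on genes in the graft, 4.75% and 4.16% in October and 2.73% and 5.38% in November. These sums were larger than the pan-leukocyte sums in each of the 4 ileal libraries, but the pan-leukocyte list is shorter, with 15 genes. The 19 pan-epithelial genes alone took 0.728% to 2.71% there, the pan-leukocyte genes 0.104% to 0.430% and the macrophage identity genes 0.449% to 1.45%. The part of epithelial RNA in the other results was not tested. Of 18 transcription factors of the gut epithelium or of gut regions, 13 had no read in the graft, and 16 passed the filter. Hnf4a, a regulator of enterocytes, had no read in the graft and 786 to 2325 normalized reads in the ileum, at least 211-fold higher. Foxa1, Gata6 and Cdx1 were also at 0 in the graft, and at least 24.2-fold, 29.6-fold and 158-fold higher in the ileum.

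Reg3b had no read in any graft library, 14432 and 3889 normalized reads in October and 9126 and 24221 in November. The pairs overlapped, and all 4 values were far over the floor of the graft. Its mean in the ileum was at least 1802-fold higher (adjusted p 7.32e-07), and no difference was called between the pairs (adjusted p 0.711). Reg3g, a bactericidal lectin of the same family, had 1 read in the graft and 1963 to 18558 normalized reads in the ileum. The 12 largest rises were Reg3b, Ckmt1, Tspan1, Oit1, Saa1, Dmbt1, Jchain and the defensins Defa6, Defa17, Defa23, Defa24 and Defa31. Defensin genes are near copies of each other, so their single values are uncertain. Jchain, which joins the chains of IgA in plasma cells, had 5.61, 5.81 and 2.42 normalized reads in the graft, 4701 and 3124 in October and 133272 and 73491 in November.

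**Figure D3:**
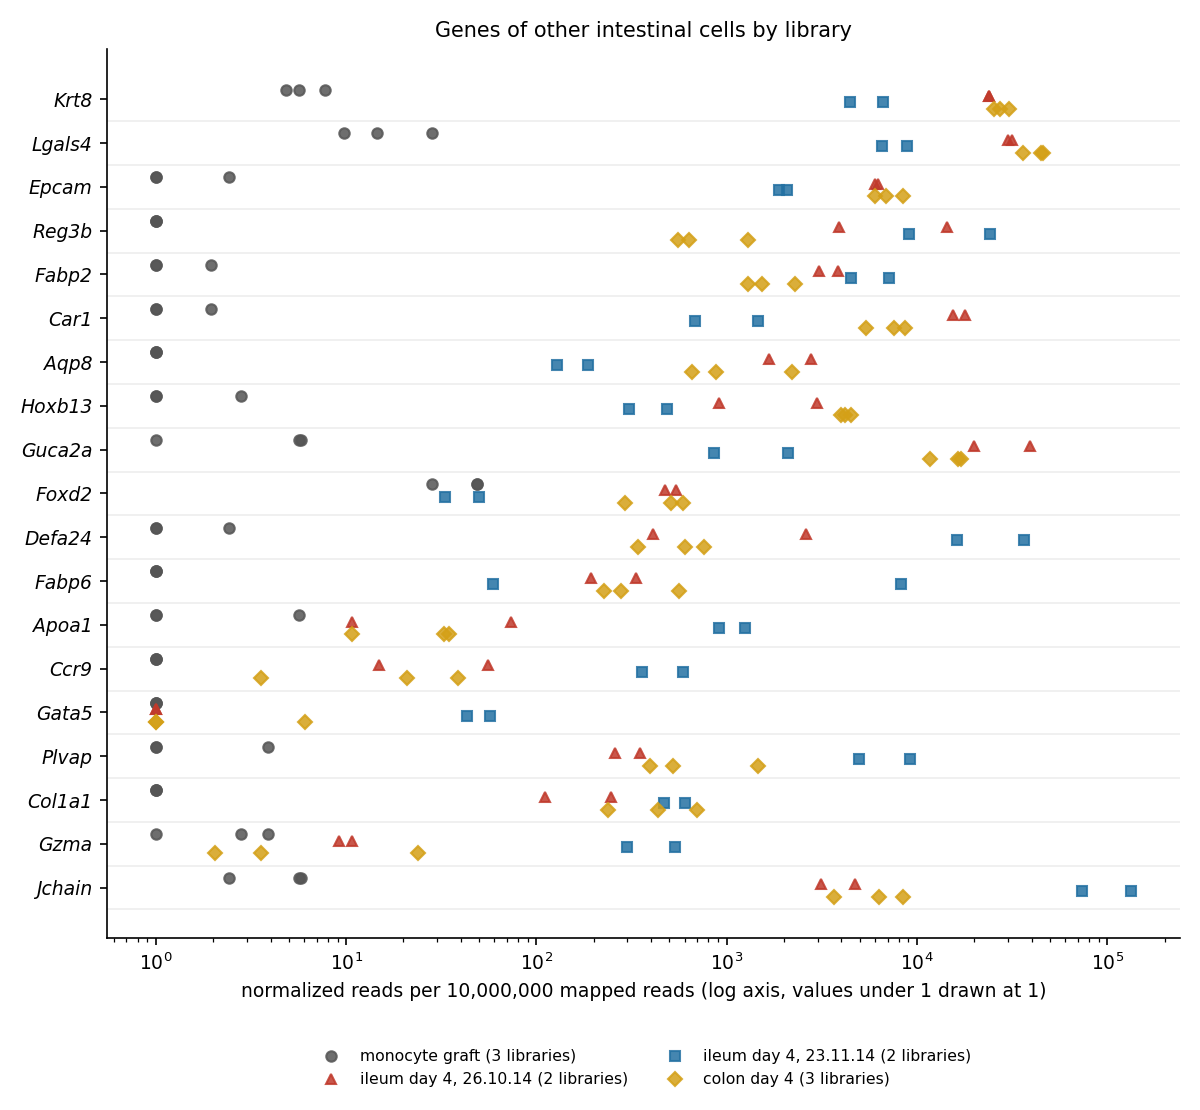
Normalized reads of genes of other intestinal cells on a log axis, 1 point per library, for the graft (circles), October ileum (triangles), November ileum (squares) and colon day 4 (diamonds). Krt8 is at 4.84 to 7.75 in the graft and 4464 to 23989.5 in the ileum, and Plvap is at 258 and 350.2 in October against 9139 and 4985 in November.

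The 2 ileal pairs differed from each other in 1779 genes, of which 1091 (9.21%) were higher in October and 688 (5.81%) in November. Scaling by reads on genes without TMM gave 635 and 958, so the balance of directions depends on the scaling. Without November replicate 1 the count was 493, and without November replicate 4 it was 1100. Of the pan-epithelial genes 17 of 19, and of colonic enterocyte genes 8 of 9, were higher in October and none in November. Car1, a carbonic anhydrase of the large bowel, had 17929 and 15418 normalized reads in October, 680.1 and 1455 in November and 5411 to 8639 in colon day 4. Aqp8, a water channel of colonocytes, was at 1676 and 2774 in October and 129 and 185 in November (adjusted p 0.00435). Guca2a, which encodes the hormone guanylin, had 19979 and 39463 in October and 862 and 2111 in November. October lay over November in each of these genes without overlap. Guca2a was 1 of the 8 largest differences in this direction, with Mettl7b, 4930539E08Rik, Sycn, 2010109I03Rik, Acta1, Hoxa11os and Klk1b3. Foxd2, a forkhead factor, had 28.1, 48.4 and 48.4 in the graft, 476 and 544 in October and 33.0 and 49.9 in November, so that November lay in or near the range of the graft (October versus November, adjusted p 3.09e-05).

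November was higher for genes of the small intestine. Of 21 small intestinal enterocyte genes, 9 were called higher in November and 1, the peptidase gene Mep1a, in October. Of all genes, 5.81% were higher in November and 9.21% in October. Apoa1, an apolipoprotein, had 10.7 and 73.7 normalized reads in October and 1245 and 906 in November. Of 13 Paneth genes 7 were higher in November, and Defa24 missed the threshold with 409.9 and 2608 against 16195 and 36689 (adjusted p 0.0527). Not all ileal genes split this way. Fabp6, the bile acid carrier of the ileum, was at 194 and 332 in October and 59.4 and 8245 in November, where replicate 4 alone was high. Slc10a2, which takes up bile acids in the ileum, had 0 to 14.3 normalized reads in the 4 libraries.

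Genes of other cells of the gut wall were higher in November as well. All 7 endothelial genes were, with Plvap of the capillary wall at 258 and 350.2 in October and 9139 and 4985 in November. So were 7 of 8 tested T and NK cell genes, such as the granzyme Gzma (10.7 and 9.22 against 535 and 299.6), and 3 of 4 tested B and plasma cell genes. Of all genes, 5.81% were higher in November. The T and NK cell genes tested were those of 12 that passed the filter on low values, and they did so only through progeny. Endothelial genes summed to 0.00110% to 0.00169% of reads on genes in the graft, 0.00744% and 0.0112% in October and 0.279% and 0.132% in November. T and NK cell genes summed to 0.00123% and 0.00101% in October and 0.0321% and 0.0146% in November. The part of these cells in the difference between the pairs was not tested. Fibroblast genes, at 0.0321% and 0.0117% and 0.0612% and 0.0559%, had no member called between the pairs. Ccr9, a gut-homing receptor of lymphocytes, had no read in the graft, 14.9 and 55.3 in October and 588 and 357 in November (adjusted p 0.00902). Gata5, a factor of the small intestinal epithelium, had no read in graft or October and 42.9 and 57.1 normalized reads in November. The 8 largest differences in this direction were Vwa1, Prg2, Defa26, Col6a4, Il17a, Esm1, Lims2 and Lat.

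**Figure D4:**
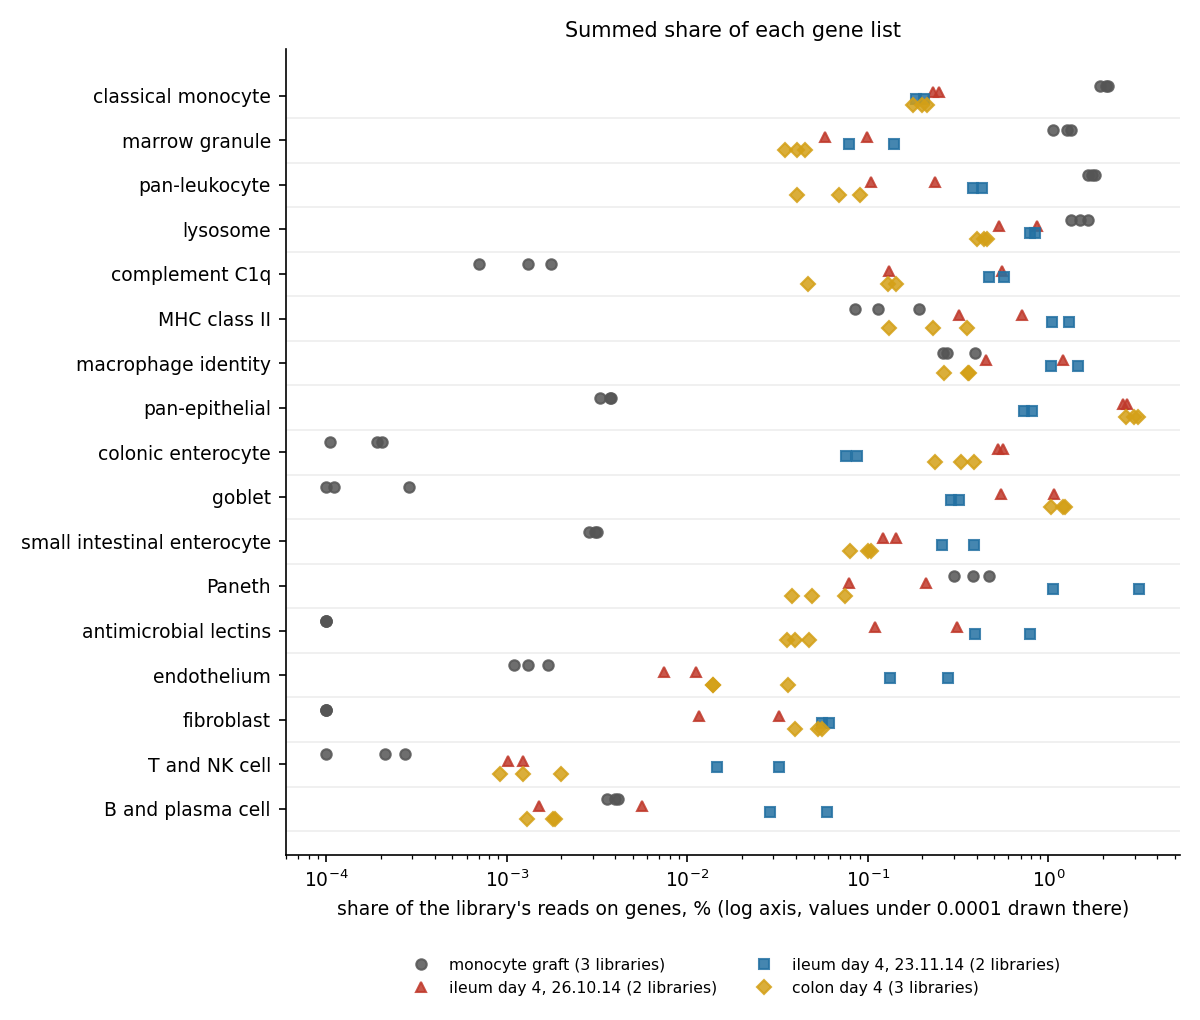
Summed share of each gene list in the reads on genes of a library, in percent on a log axis, 1 point per library. Pan-epithelial reads were 2.58% and 2.71% in October and 0.728% and 0.808% in November, and Paneth reads 0.0781% and 0.210% and 1.06% and 3.18%.

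Between the pairs, 9.21% of all genes were higher in October and 5.81% in November. Of 25 macrophage identity genes 2 (Cd63 and Gas6) were higher in October and 1 (Tgfbr2, a TGF-beta receptor) in November, and none of the C1q and MHC class II genes was called. Of 15 pan-leukocyte genes 2, Rac2 and Was, were higher in November. Of 12 immediate early genes 5 were higher in October. Of 6 erythroid genes 5, the globins and Alas2, were higher in November, and globin genes are near copies whose single values are uncertain.

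The place of each pair was also read against the sorted libraries of later days. On days 8 and 12, 357 genes were higher in colon and 704 higher in ileum on both days by at least 4-fold. Genes of other gut cells were among them. The ileal set held 12 Paneth, 11 small intestinal enterocyte and 8 T and NK cell genes, beside 8 pan-leukocyte and 5 macrophage identity genes. The colonic set held 7 colonic enterocyte and 5 goblet genes. Both sets are thus of the sorted libraries as a whole and not of macrophages alone. A gene was then counted as nearer to colon in a day 4 library when its log2(normalized reads + 50) was closer to the mean of late colon than to that of late ileum. In October replicates 2 and 3, 97.0% and 70.1% of these genes were nearer to colon. In November replicates 1 and 4 the shares were 5.28% and 7.63%, and in the colon day 4 libraries 96.2% to 99.8%. October replicate 3 lay between the segments, and it is the shallowest of the 4. With genes of the epithelial lists left out, 342 and 678 genes remained. The shares were then 97.1%, 69.7%, 5.29% and 7.65% in replicates 2, 3, 1 and 4. The genes that remained were not screened for expression in epithelium, so the part of epithelial RNA in these shares was not tested. This is a description, and no test was made.

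**Figure D5:**
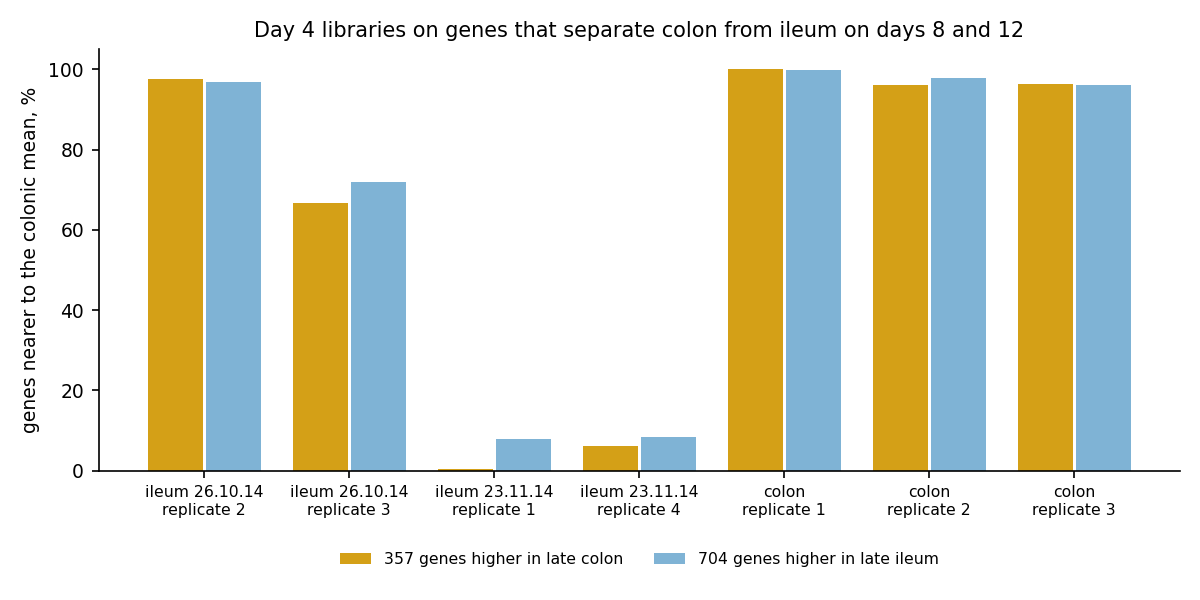
Percent of genes nearer to the mean of late colon than to that of late ileum in each day 4 library, for genes higher in late colon and genes higher in late ileum. October replicate 2 stands at 97.5% and 96.7%, near the colon libraries, and November replicate 1 at 0.280% and 7.81%.

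The 4 ileal libraries together differed from colon day 4 in 377 genes (3.18%), and the pairs apart as follows. Between the October pair and colon day 4, edgeR's test called 0 genes (0.00%), with 1073 at an unadjusted p under 0.05. DESeq2 called 51, the table without a filter on low genes 13, scaling by mapped totals 2, and the fit without October replicate 2 called 512. Between the November pair and colon day 4, 2918 genes (24.6%) were called, or 1124 without replicate 1 and 1879 without replicate 4. Against ileum day 8 the November pair had 0 calls (0.00%) by edgeR and by DESeq2, with 915 at an unadjusted p under 0.05. The October pair had 2890 (24.4%), or 1452 without replicate 2. Colon day 4 and ileum day 8 libraries are dated November or January. Each group holds libraries of the November experiment and none of the October experiment. Within each pair, sharing of an experiment is thus the same for colon day 4 and ileum day 8. Between the pairs it differs, and its part in these counts was not tested. These comparisons share libraries, and a count of 0 with 2 libraries in a group does not show that groups are alike.

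Each pair was also set against the graft alone. In the November pair 15 of 19 classical monocyte genes fell, with a median of -4.11, as did 11 of 15 pan-leukocyte and 18 of 24 cell cycle genes, where 16.1% of all genes fell. All 3 C1q, 16 of 25 macrophage identity and 19 of 19 pan-epithelial genes rose, where 31.7% of all genes did. The pan-epithelial count was set in part by the filter on low values. In the October pair 13 classical monocyte, 14 pan-leukocyte and 22 cell cycle genes fell, where 19.9% of all genes fell, and 16 macrophage identity genes rose, where 33.2% of all genes did.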

How the data were processed

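RNA of sorted cells was sequenced by a 3′ method derived from MARS-seq. The deposited values are whole-number read counts per gene, which the authors made from uniquely mapped reads (HISAT 0.1.6, mm9) counted on exons of the sense strand with HOMER, per the labels and the study's methods; whether reads were collapsed by molecular identifier is not given in the sources used here. Values that count each molecule several times would add spread that the intervals do not cover. The mapped total in each column name gave normalized reads per 10000000. A gene was tested when 3 or more of 25 libraries reached 50 normalized reads (11842 of 24411 genes), and the test was run with edgeR 4.0.16 (R 4.3.3; TMM, glmQLFit and glmQLFTest), with all 7 groups of the series that share the toxin receptor strain in 1 fit, and with ileum day 4 split by date in a second fit. DESeq2 1.42.0 was an alternative. Colon day 8 replicate 1 was left out of the main fits, because the study lists 3 colon day 8 samples. Tests were checked on simulated counts. Members and gene lists were chosen with earlier results of these data known. Genes named are the 6 members of each list with the highest means, the 12 largest rises and falls, the 8 largest differences between the dates each way (where the mean of the higher group reached 200) and genes that the study names. Adgre1, Axl, Ccnd1, Cd53, Cd63, Ciita, Ctsl, Cxcr4, Fcgr1, Fosb, Gaa, Gas6, Il10, Itgax, Maf, Mertk, Mgst1, Mrc1, Mx1, Nfkb1, Pf4, Prr13, Ptgs2, Rac2, Slc10a2, Tgfbr2, Thbs1, Trem2 and Was were named after their values were seen. Some genes of the lists are not reported here by name.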

Additional observations from a re-analysis of the deposited data

Results flagged for a closer look

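Among 80 values examined over the 4 ileal libraries, 6 had 1 library far from the other 3 by Dixon's ratio, the gap to the nearest library divided by the range (above its 95% critical value for 4 libraries), and chance gives about 1 such group in 20. November replicate 4 stood apart for Fabp6 (ratio 0.967), Defa20 (0.919), Defa21 (0.863) and S100a4 (0.930), each time as the highest. For Fabp6 the values were 194 and 332 normalized reads in October and 59.4 and 8245 in November. Nfe2 and Prtn3 (both ratio 1) had reads in 1 ileal library each, at 2.13 and 9.91 normalized reads, which are near the floor.

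For 8 of 76 genes compared, the change from the graft differed between ileum and colon at day 4 by edgeR's test, which is the difference between the 2 groups of day 4 itself, as they share the graft. All were higher in ileum, on the log2 scale by 4.53 for Apoa1, 4.51 for Defa17, 4.02 for Reg3b, 2.85 for Lyz1, 2.38 for Apoe, 2.23 for Laptm5, a lysosomal protein of leukocytes, 2.20 for Coro1a and 2.10 for Lgmn, a lysosomal protease. Over all genes 377 (3.18%) were called. Reg3b had 557 to 1292 normalized reads in colon and 3889 to 24221 in ileum. By date, Reg3b gave an adjusted p of 0.296 for October against colon and 0.00523 for November, and Coro1a 0.468 and 0.00430. None of the 8 genes was called for October, where 0.00% of all genes were, and all were for November, where 24.6% of all genes were. The 8 genes came from a test that holds both pairs, so their calls by date are not separate support.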

How the results depend on the processing

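Between graft and ileum day 4 the count of calls was 5800 to 7542 over the settings tried and 6031 to 6634 with 1 library left out, and every such count was within 1.5 times 6718. The replicate block by experiment date gave 6663 calls, and for this comparison, the 1 in which it was fitted, it moved no count of calls over all genes or over a list past that limit. With mapped totals, a scaling chosen after seeing the data, 3814 genes were lower, and 11 lysosomal genes were, against 4 for November alone. October against November gave 493 to 1358 calls with 1 library left out (333 to 860 higher and 160 to 516 lower in October), and 635 higher with library totals. October against colon day 4 gave 51 by DESeq2, 2 with mapped totals, 13 without a filter and 0 to 512 with 1 library left out. With 1 library left out, November against colon day 4 gave 1124 to 2474 and October against ileum day 8 1452 to 2478. A lone library left in a group is assumed to vary like the others. Nearness to late colon with a 2-fold gene list was 6.86%, 66.0% and 10.3% in ileum replicates 1, 3 and 4, and with a pseudocount of 1 it was 3.77%, 93.9% and 64.2% in replicates 1, 2 and 3. Of 280 named genes 196 had no changed call. The sign of the fitted change was the other way for October alone in Cd79a (-0.38 on the log2 scale), Hbb-b1 (-2.74), Hdac7 (-1.79), Lat (-0.0734) and Prg2 (-1.26). For November alone it was the other way in Ier2 (-1.36) and Trim16 (-1.02). Of these genes only Cd79a, Lat and Prg2 were called in the main comparison. Their adjusted p reached 0.814, 0.968 and 0.497 over the alternatives, so a change of sign here is not a call in the other direction. The cause of these changes was not tested. October replicate 3 has the fewest reads and the highest floor.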

Other observations

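Further gene groups were near 0 in the graft. All 11 goblet cell genes rose, where 36.2% of all genes did, and 5 of them had no read in the graft. Summed over the goblet list, reads were at most 0.000286% of reads on genes in the graft. At that level its genes passed the filter on low values only through progeny. The count of goblet genes that rose was thus set largely by the filter, and the share of all genes is no fair measure for it. Muc2, the main mucin of the gut, had 0 to 8.42 normalized reads in the graft. It had 8418 and 5401 in October and 1360.3 and 2018 in November (October versus November, adjusted p 0.00469). Of 12 enteroendocrine genes 11 had no read in the graft, 7 passed the filter on low values, and none of these was called between the pairs. Sst (somatostatin) ranged from 0 to 770.3 over the ileal libraries. Contractile and glial genes rose in 8 of 8, where 36.2% of all genes did, or 5 for October alone, where 33.2% did. Of them 4 had no read in the graft. Des (desmin) was at 42.7 and 27.6 in October and 1020.2 and 592 in November.

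Genes of granulocytes did not move together. S100a8 and S100a9, calcium-binding proteins of neutrophils and monocytes, fell, with log2 fold changes of -3.46 ± 0.75 and -3.02 ± 0.75, while Mmp9, a gelatinase, and Il1r2, a decoy receptor for IL-1, rose by 6.07 ± 1.04 and 5.58 ± 1.20. Ly6g, a neutrophil surface protein, had 11.2 to 19.4 normalized reads in the graft, 561 and 433 in October and 33.0 and 49.9 in November (October versus November, adjusted p 0.00132). Colon day 8 replicate 1, which was in no comparison, had 53.5% of the segment genes nearer to late colon, and the 3 graft libraries 39.8% to 40.4%.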
